A study of Mus musculus with 10 samples.

Results

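The Obox genes (oocyte-specific homeobox) are described here by 6 members, Obox1, Obox2, Obox3, Obox5, Obox6 and Obox7, chosen by gene name from the 21437 rows of a table of mouse transcript levels. All 6 had a row, and no row was named Obox4. The members were contrasted by class, taken from background knowledge and not from these values: Obox1, Obox2, Obox5 and Obox7 as maternal and Obox3 and Obox6 as zygotic. RNA-seq libraries, 2 in each group, were made from wild-type MII oocytes (16 h after hCG), from wild-type control embryos at the middle 2-cell stage (40 h) and early 4-cell stage (55 h), and from Ago2 kd embryos at the same 2-cell and 4-cell stages. The labels give the strain ICR for every sample, and name F1 females, 7 weeks old, superovulated with 6.5 IU PMSG and 5 IU hCG and crossed with F1 males, so the strain of the embryos is uncertain; per the study's methods, Ago2, the slicer protein of RNA interference, was depleted by injecting siRNA together with AGO2 antibodies into zygotes. How many oocytes or embryos went into a library, and whether replicates came from separate females, was not given in the sources used here, so p-values measure the spread between libraries, which may be technical.

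OBOX proteins are PRD-class homeodomain transcription factors related to CRX and OTX. Their genes lie in a rodent cluster of near-copies and pseudogenes. Some members are transcribed in the growing oocyte and are passed to the embryo as maternal mRNA, whereas others are switched on by the embryo's own genome during zygotic genome activation (ZGA). In the mouse, the family is known for a role in ZGA itself, and most maternal mRNAs are removed around the same time.

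The members sat on chromosome 7 of GRCm38 in the GENCODE M21 annotation, all as protein-coding genes. Obox7 (ENSMUSG00000055942.13) spans chr7:14659496-14665996 on the plus strand, and Obox2 (ENSMUSG00000074369.12) spans chr7:15388721-15398545 on the same strand. Obox1 (ENSMUSG00000054310.16, plus strand) has a model that runs from chr7:15388948-15556866 and therefore covers most of Obox2. The models of Obox1 and Obox2 overlap over 9598 bases, of which 59 are exonic in both. Obox3 (ENSMUSG00000066772.12) lies on the minus strand at chr7:15479825-15639902, and overlaps the span of Obox1 by 77042 bases without a shared exonic base. Obox5 (ENSMUSG00000074366.9) is at chr7:15750131-15759800 on the plus strand, and Obox6 (ENSMUSG00000041583.8) at chr7:15833241-15839678 on the minus strand.

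**Figure D1:**
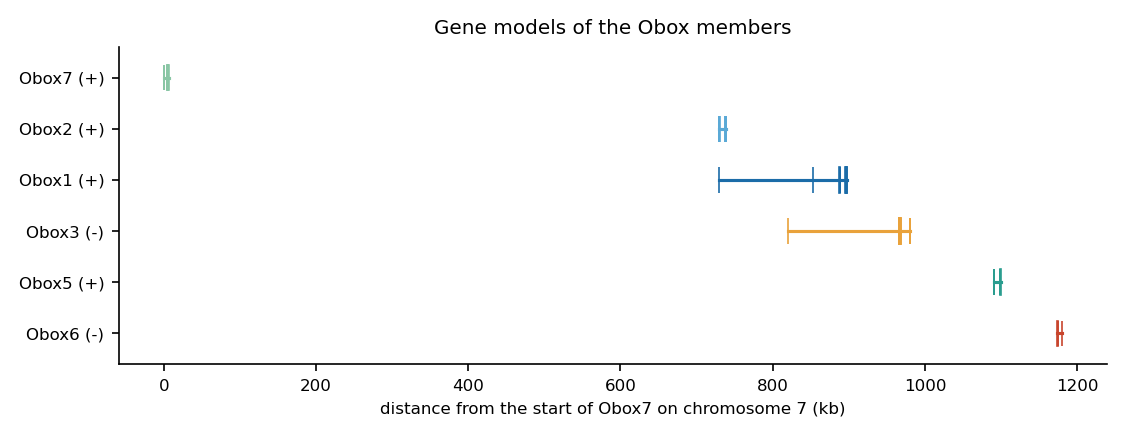
Gene models of the 6 Obox members, with the distance in kb from the start of Obox7 on the x axis and 1 row per gene (strand in brackets), where lines are gene spans and bars are annotated exons. The model of Obox1 begins beside Obox2 and reaches 897.4 kb, and Obox2, the member nearest to Obox7, starts at 729.2 kb.

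Parts of the copies are alike, most of all in Obox1 and Obox2, whose reads are hard to assign. The 60 coding bases most alike in all members are printed here. They were picked for their likeness and do not stand for the whole genes. The stretch was taken from the longest annotated coding sequence of each gene in GENCODE M21, and capitals mark bases that differ from Obox1.
Obox1: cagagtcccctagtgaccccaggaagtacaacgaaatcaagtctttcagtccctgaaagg
Obox2: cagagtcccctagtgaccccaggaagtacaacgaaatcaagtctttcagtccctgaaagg
Obox5: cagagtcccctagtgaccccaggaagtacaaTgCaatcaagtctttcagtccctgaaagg
Obox7: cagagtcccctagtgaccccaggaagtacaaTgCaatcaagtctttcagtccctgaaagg
Obox3: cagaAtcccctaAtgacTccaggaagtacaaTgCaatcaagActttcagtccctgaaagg
Obox6: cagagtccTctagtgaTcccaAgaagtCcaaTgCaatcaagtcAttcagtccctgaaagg
Obox1 and Obox2 had no difference in this stretch, Obox5 and Obox7 carried the same 2 differences, and Obox3 and Obox6 had 6 and 7.

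Over the aligned bases of the longest coding sequences, gaps left out, identity was 98.5% between Obox1 and Obox2 and 96.0% between Obox5 and Obox7. Counted over the longer sequence, it was 72.9% (612 against 453 bases) and 71.9% (873 against 654 bases). Obox6 stood apart by aligned bases, with 75.5% to 80.1% identity to the other members. Over the longer sequence its identities (32.9% to 67.7%) overlapped those of other pairs, such as 42.0% for Obox2 and Obox3. Of all 50-base words in the annotated transcripts, 57.4% of those of Obox1 and 65.1% of those of Obox2 also occurred in another gene, mostly in each other. The share was 20.2% for Obox3, 18.1% for Obox5, 21.1% for Obox7 and 5.0% for Obox6. Values of Obox1 and Obox2 are therefore uncertain as single genes, and they were also analysed as a sum. How reads that match several genes were treated, and whether strand was used, was not given in the sources used here.

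**Figure D2:**
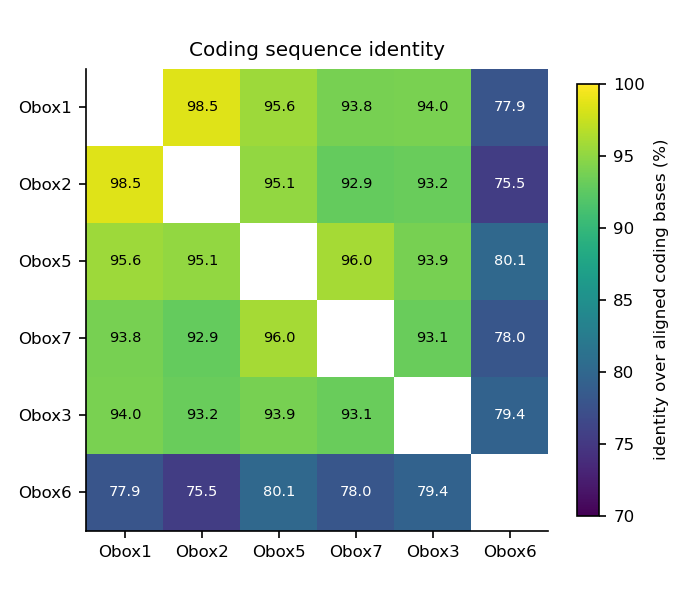
Identity of the longest annotated coding sequences of the Obox members, in % of aligned bases (colour scale from 70% to 100%, each pair printed in its cell). Over aligned bases, gaps left out, the 5 members other than Obox6 share 92.9% to 98.5%, and Obox6 shares 75.5% to 80.1% with them.

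The windows around the start sites held a common stretch as well. RefSeq windows (GRCm38.p6, 250 bases before to 50 bases from the start) were present for 5 members. All 5 contained the run of 25 bases shown in capitals, followed here by the next 5 bases.
Obox1, chr7:15547159-15547188, plus strand: GTGAGAATTAAGGATTTGAATATTGcaagt
Obox2, chr7:15388850-15388879, plus strand: GTGAGAATTAAGGATTTGAATATTGcaagt
Obox5, chr7:15750260-15750289, plus strand: GTGAGAATTAAGGATTTGAATATTGcaagt
Obox7, chr7:14659624-14659653, plus strand: GTGAGAATTAAGGATTTGAATATTGcaagt
Obox3, chr7:15639857-15639886, minus strand: GTGAGAATTAAGGATTTGAATATTGtaagt
The maternal members had no difference over these 30 bases, and Obox3 had 1. The run began 98 bases before the RefSeq start of Obox1, 109 before that of Obox3, 110 before that of Obox5 and 84 before that of Obox7. It began 1 base before that of Obox2, whose RefSeq start lies further upstream relative to the run. In GENCODE M21, all 5 gene models start before the run and hold it inside an annotated exon. By that annotation the run is part of transcripts. The GENCODE model of Obox1 starts at chr7:15388948, far before its RefSeq window. The longest run common to the 4 maternal windows was 44 bases. Of the motifs searched on both strands, the core TAATCC bound by CRX and OTX proteins was in the window of Obox3 alone, against 7.1% of all 32851 windows, and TAATTG was in none (8.0% of all windows). CCAAT was in those of Obox2, Obox3 and Obox7 (37.4%), and TATAAA in that of Obox3 (13.6%). These matches describe letters in the windows only.

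Expression is given as FPKM (sequenced fragments scaled to exon length and to library size), a level per length that can be set beside that of another gene. The FPKM of a library summed to 178681 to 458874, highest in MII oocytes, and 4-cell Ago2 kd replicate 1 stood apart, with 14.6% of the genes above 10 FPKM in its replicate below 0.1 FPKM, against 5.81% or less in the other libraries. Gapdh, used by every cell, did not exceed 0.167 FPKM in any library, so a gene at 0 is described as listed at 0. Read numbers are not part of the FPKM, so the depth is unknown. Of 13 oocyte markers with a row, 12 reached 1 FPKM in MII oocytes, where they summed to 28900 and 32200 FPKM, against 39.2 to 101 FPKM in the 4-cell libraries. Only 1 of 12 cumulus and granulosa markers had a row, and it was listed at 0 throughout, and 5 leukocyte and blood markers summed to at most 7.86 FPKM. The oocytes have 1 cell, and the embryos have 2 or 4 cells by stage. FPKM are scaled to library size, so RNA per cell or per embryo was not measured. Ago2 levels were not analysed here.

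Differences were tested on log2(FPKM + 1) with limma in 1 fit of all 10 libraries and 8726 genes (at least 1 FPKM in at least 2 libraries), and a gene was called at a Benjamini-Hochberg adjusted p below 0.05 over all genes tested. All 6 members passed this filter, Obox2 through the MII oocyte libraries alone. Obox3 passed it only through replicate 2 of the 2-cell control (6.579 FPKM) and 2-cell Ago2 kd (41.4 FPKM) groups. Log2 differences below are on the log2(FPKM + 1) scale, which understates changes of low genes. For 1 gene in groups of 2 libraries, the smallest p of a two-sided exact permutation test is 0.333, so each p rests on the spread that limma pools over groups and genes.

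In MII oocytes, the maternal members were among the most abundant transcripts and the zygotic members were near 0. Obox1 had 761.5 and 946.9 FPKM in the 2 libraries and Obox2 had 696.7 and 817.4 FPKM, which ranked these copies at 72 and 82 of all rows by mean. Obox7 had 372.2 and 420.6 FPKM, and Obox5 had 241.3 and 282.1 FPKM. Every maternal value lay above every zygotic value in these libraries, since Obox3 had 0.1621 and 0.006423 FPKM and Obox6 was listed at 0 in both. The 4 maternal members summed to 2072 and 2467 FPKM, and the zygotic members made up 0.00782% and 0.00026% of the summed Obox FPKM. Among the maternal members, the order Obox1 over Obox2 was the same in both libraries, but their values overlapped, and their reads are hard to tell apart.

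**Figure D3:**
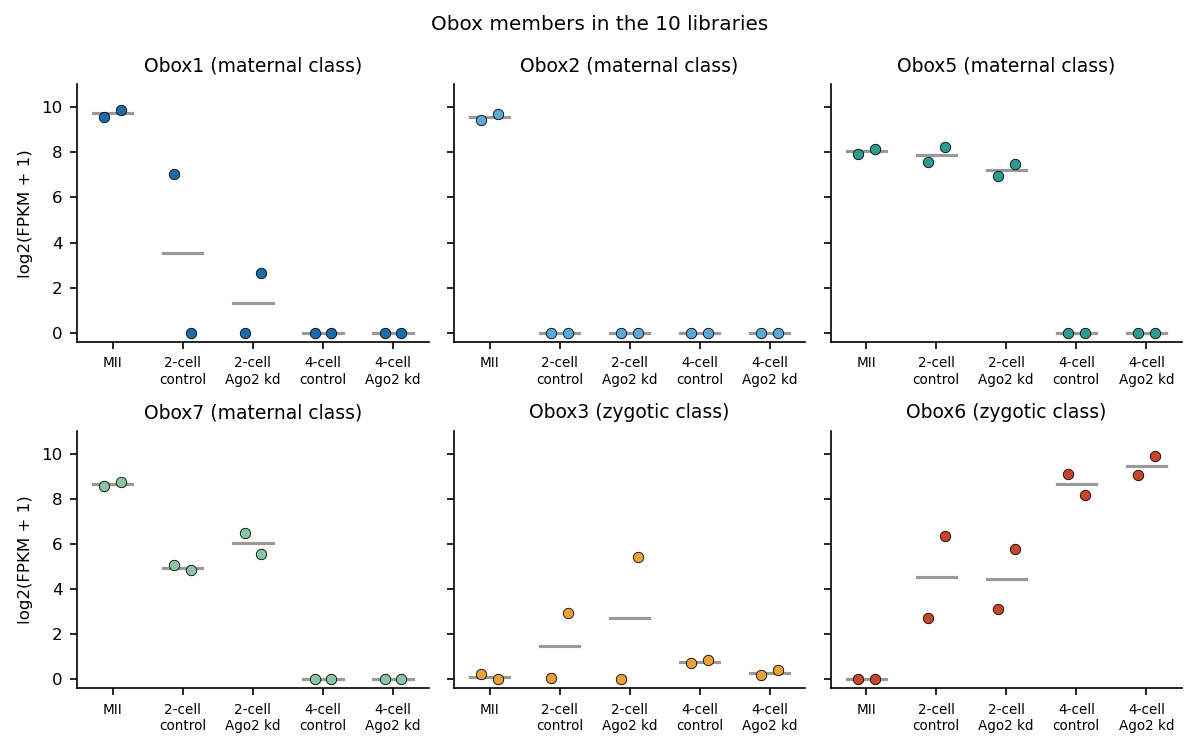
Levels of the 6 Obox members as log2(FPKM + 1) on the y axis, with 1 point per library and a grey bar for the mean of the 2 libraries of each group. The maternal members sit high in MII oocytes and are listed at 0 in all 4-cell libraries, whereas Obox6 runs from 0 in MII oocytes to its highest values in 4-cell embryos.

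From the MII oocyte to the 2-cell control embryo, which asks which mRNAs are lost before or around ZGA, the maternal members did not move together. Obox2 was listed at 0 in both 2-cell control libraries (adjusted p = 5.42e-05 by limma). It was listed at 0 in all libraries outside the oocyte group, so it was tested only through the group where it was high. The other groups added no spread to its fit, and its p is no separate support. Obox7 fell to 32.67 and 27.43 FPKM, a log2 difference of -3.68 (SE 0.39, adjusted p = 0.00126 by limma), with both 2-cell libraries below both oocyte libraries. Obox5 was called in neither direction, with 185.7 and 300.4 FPKM in the 2-cell libraries, on both sides of its oocyte values. Its log2 difference was -0.14 (SE 0.36, 95% interval -1.01 to 0.72, adjusted p = 0.894 by limma), and the sign turned when libraries were scaled to a common sum (1.04, adjusted p = 0.081), to a common median (0.49) or by quantiles (1.0). By mean FPKM, Obox5 ranked at 126 of all rows in 2-cell control embryos, above every other member.

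Obox1 went from high values in both oocyte libraries to 129.3 FPKM in 2-cell control replicate 1 and was listed at 0 in replicate 2. Both values were below the oocyte values, but they were too far apart for a call (log2 difference -6.22, SE 2.05, adjusted p = 0.0775 by limma). Without replicate 1 the adjusted p was 0.0045, so that library decides the call. Summed, Obox1 and Obox2 reached 1458 and 1764 FPKM in oocytes. In 2-cell control embryos the sum was 129.3 and 0 FPKM, and it was not called (log2 difference -7.14, SE 2.05, adjusted p = 0.0505 by limma). The call of Obox2 was thus lost when both near-copies were summed.

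Of the zygotic members, 1 was called from the oocyte to the 2-cell stage. Obox6, whose product has been used in reprogramming of somatic cells, went from 0 to 5.512 and 80.74 FPKM in the 2-cell control libraries, with both above the oocyte libraries (adjusted p = 0.0482 by limma). Obox3, a zygotic factor of the family, had 0.03288 and 6.579 FPKM, of which the lower lay between its oocyte values and the higher above them (log2 difference 1.37, SE 1.66, adjusted p = 0.661 by limma), which was no call. In all, 3 of 6 members were called, where 20.8% of all genes tested were. The calls were 2 lower (14.2% of all genes), among them Obox2, tested only through the oocyte libraries, and 1 higher (6.54%). Groups did not overlap for 4 members, against 62% of all genes. The median log2 difference of all genes tested was -0.06 at this step, and 0.24 after scaling to a common sum; Obox7 stayed lower and Obox6 higher under all 3 scalings.

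The call of Obox6 at this step was weak. It was kept in 11 of 20 alternatives, with adjusted p from 0.00946 to 0.189, and was lost when any library other than 2-cell control replicate 1 or the 2-cell Ago2 kd libraries was left out, when low genes were not filtered (0.105) and when only the MII oocyte and 2-cell control groups were fitted (0.155). Without 2-cell control replicate 2 the log2 difference was 2.70 in place of 4.53.

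Both 2-cell groups had 1 library with a low and 1 with a high zygotic share. The zygotic members took 1.57% and 21% of the summed Obox FPKM in control replicates 1 and 2, and 3.54% and 29.4% in Ago2 kd replicates 1 and 2. Replicate 2 was the higher for both Obox3 and Obox6 in both groups. The 10 markers of 2-cell genome activation with a row summed to 734 and 1010 FPKM in the control libraries and to 409 and 649 FPKM in the Ago2 kd libraries, also with replicate 2 higher, and to 90 and 116 FPKM in MII oocytes; their part in the zygotic shares was not tested. All 10 were above 0 in at least 1 of the 2-cell control libraries.

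**Figure D4:**
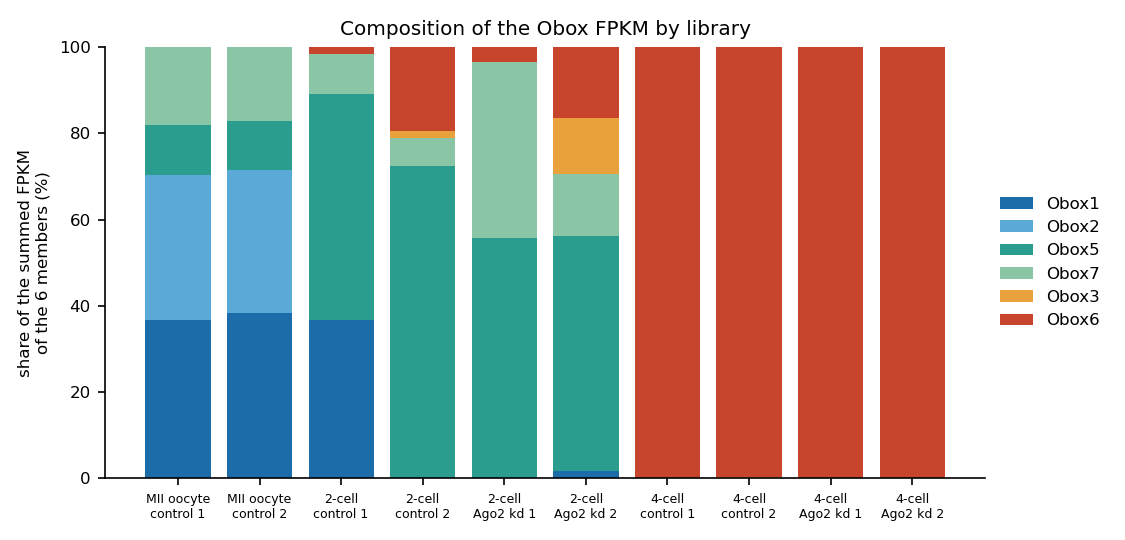
Share of each Obox member in the summed FPKM of the 6 members (y axis, %, from 0) in each of the 10 libraries. Obox1 and Obox2 make up most of the oocyte bars, Obox5 takes 52.6% to 72.4% of the 2-cell bars, and Obox6 takes at least 99.7% of the 4-cell bars.

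From the 2-cell to the 4-cell control embryo, when most remaining maternal mRNA is cleared, every maternal member was listed at 0 in both 4-cell libraries. Obox5 ended there from 185.7 and 300.4 FPKM (adjusted p = 5.24e-05 by limma) and Obox7 from 32.67 and 27.43 FPKM (adjusted p = 0.000203 by limma). These calls were kept in all 21 alternatives, with adjusted p at or below 0.0109. Groups listed wholly at 0 add no spread to the fit, which lowers the SE of every member but Obox3 at every contrast. For Obox6 this group is the MII oocytes, and for Obox1 it is both 4-cell groups. Obox1, listed at 0 already in 1 of the 2-cell control libraries, was not called (adjusted p = 0.225 by limma), but was called without 2-cell control replicate 2 (0.0068). Obox2 was listed at 0 on both sides.

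Obox6 rose to 551.9 and 285.1 FPKM in 4-cell control embryos, a log2 difference of 4.11 (SE 1.28, adjusted p = 0.0421 by limma), with both libraries above both 2-cell libraries. It ranked at 84 of all rows by mean and was the only member above 1 FPKM at this stage. The call was kept in 10 of 21 alternatives, with adjusted p from 0.0138 to 0.184. It was lost without any library other than 2-cell control replicate 2 or the 2-cell Ago2 kd libraries, without the filter on low genes (0.0989), with quantile normalization (0.0514), in a fit of only these 2 groups (0.146) and in a fit without the MII oocyte libraries (0.0782). Leaving out 2-cell control replicate 1 lowered the log2 difference to 2.28. Obox3 had 0.648 and 0.7928 FPKM, within the range of its 2-cell values (log2 difference -0.70, SE 1.66, adjusted p = 0.781 by limma). Of the 6 members, 3 were called, a share not far from the 38.6% of all genes tested; 2 were lower (17.5%) and 1 was higher (21.1%). Groups did not overlap for 3 members, against 68.6% of all genes tested. The median log2 difference of all genes tested was 0.24 at this step, and 0.06 after scaling to a common sum.

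Between the stages of the Ago2 kd embryos, 2 maternal members were called lower and Obox6 higher; there was no Ago2 kd oocyte group, and this step was not tested against that of the control embryos. From 2-cell to 4-cell Ago2 kd embryos, Obox5 went from 122.3 and 174.9 FPKM to 0 in both libraries (adjusted p = 6.8e-05 by limma), and Obox7 from 89.53 and 46.24 FPKM to 0 in both (adjusted p = 0.000137 by limma). Obox6 rose from 7.767 and 52.87 FPKM to 521.7 and 959.4 FPKM, a log2 difference of 5.03 (SE 1.28, adjusted p = 0.0219 by limma), a call kept in 16 of 21 alternatives (adjusted p 0.00934 to 0.117) and lost without 2-cell Ago2 kd replicate 1, without either 4-cell Ago2 kd library, without the filter on low genes (0.0528) and in a fit of only these groups (0.0708). Of the 6 members 3 were called, where 35.3% of all genes tested were. Obox1 (0 and 5.33 FPKM in the 2-cell libraries) and Obox3 (0.01778 and 41.4 FPKM) were not called; without 2-cell Ago2 kd replicate 1, the log2 difference of Obox3 was -5.11 (adjusted p = 0.0218), and without replicate 2 it was 0.27.

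At the 2-cell stage, no member was called between Ago2 kd and control embryos, a comparison that asks whether maternal mRNAs are retained after Ago2 knockdown in the zygote. Among all genes tested, 0.55% were called. Obox7 had 89.53 and 46.24 FPKM in Ago2 kd and 32.67 and 27.43 FPKM in control embryos, with both Ago2 kd libraries above both control libraries. Its log2 difference was 1.08 (SE 0.39, 95% interval 0.14 to 2.02, adjusted p = 0.69 by limma). It was the 1 member with an unadjusted p below 0.05 (0.0296), as 5.96% of all genes tested had. Obox5 lay the other way, with both Ago2 kd libraries below both control libraries (log2 difference -0.69, SE 0.36, 95% interval -1.55 to 0.18, adjusted p = 1 by limma). Groups did not overlap for these 2 members, against 29.1% of all genes. Obox2 was listed at 0 in all 4 libraries.

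The remaining members varied more between libraries of a group than between the groups. Obox6 differed by -0.09 on the log2 scale (95% interval -3.13 to 2.96), Obox3 by 1.23 (-2.72 to 5.18) and Obox1 by -2.18 (-7.05 to 2.68). Intervals of this width leave changes of several log2 units in either direction undetectable with these libraries. Summed over the class, maternal FPKM were 347.6 and 327.9 in control and 211.8 and 226.5 in Ago2 kd embryos. This difference was not tested, and Obox7 went the other way. Obox1 gave 129.3 FPKM of the sum in control replicate 1 and was listed at 0 in control replicate 2.

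At the 4-cell stage, no member was called between Ago2 kd and control embryos either, where 4% of all genes tested were, and leaving out Ago2 kd replicate 1, the library that stood apart, gave no call of a member. The 4 maternal members were listed at 0 in all 4 libraries of both groups. Obox6 had 521.7 and 959.4 FPKM in Ago2 kd embryos, around and above the control values (log2 difference 0.83, SE 1.28, 95% interval -2.21 to 3.88, adjusted p = 0.906 by limma). Obox3 had 0.142 and 0.3127 FPKM, below both control values, but all 4 were under 1 FPKM (log2 difference -0.49, SE 1.66, adjusted p = 1 by limma); it was the 1 member without overlap, against 37% of all genes. An unadjusted p below 0.05 was found for 15.4% of all genes and for 0 members. The effect of the knockdown was not shown to differ between the stages for any member: none was called in the interaction (2.28% of all genes were) and none had an unadjusted p below 0.05 by limma (13.4% of all genes had), the lowest being 0.095 for Obox7.

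**Figure D5:**
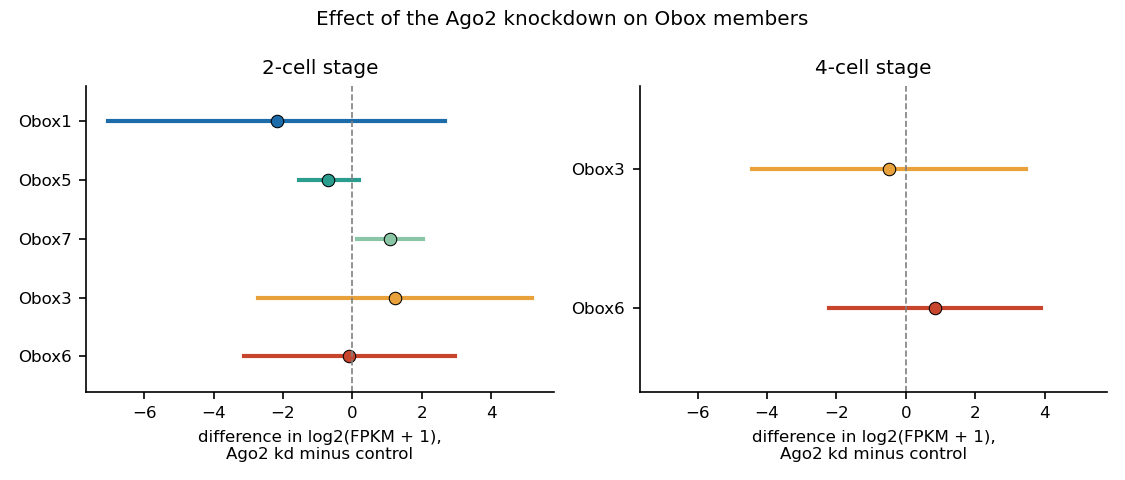
Difference between Ago2 kd and control embryos in log2(FPKM + 1) for each Obox member not listed at 0 in both groups, at the 2-cell stage (left) and the 4-cell stage (right), with points for limma estimates and lines for 95% intervals. The interval of Obox7 at the 2-cell stage lies above 0 before adjustment, and the others include 0.

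Beyond the members, 24 further rows carried an Obox name, of which 18 were Obox4 pseudogenes. Of the 23 that were above 0 in a library, 19 (82.6%) had their highest group mean at the 2-cell stage, against 32.7% of all rows above 0, though several of these means were under 1 FPKM, and 17 of the 24 were listed at 0 in all 4-cell libraries. Only 11 of the 24 were tested. From oocyte to 2-cell control embryo 7 were called higher and 0 lower (6.54% and 14.2% of all genes tested). From 2-cell to 4-cell control embryo 1 was called higher and 8 lower (21.1% and 17.5%). Apart from Obox4-ps35 and Obox8, the tested rows reached 1 FPKM in 2-cell libraries alone. They passed the filter only through the stage where they were high, so these counts are no separate support. Obox4-ps35 had the highest mean of the 24 rows at the 2-cell stage. It was listed at 0 in oocytes, at 56.21 and 46.34 FPKM in 2-cell control embryos (adjusted p = 0.00439 by limma) and at 3.246 and 0 FPKM in 4-cell control embryos (adjusted p = 0.00565 by limma). In 2-cell Ago2 kd embryos it had 12.32 and 17.07 FPKM, below both control libraries, without a call (adjusted p = 0.964). Obox8, another gene of the family, had its values in the order of the stages found for Obox6: it was listed at 0 in oocytes, had 2.561 and 0.9088 FPKM in 2-cell control embryos and rose to 19.61 and 32.44 FPKM in 4-cell control embryos (log2 difference 3.33, SE 0.61, adjusted p = 0.0058 by limma). Obox3-ps1 was listed at 56.7 FPKM in 2-cell control replicate 1 and at 0 in every other library. Obox4-ps3 had 5.664 and 10.99 FPKM, Obox4-ps27 5.447 and 7.604 FPKM and Obox6-ps1 3.839 and 6.028 FPKM in 2-cell control embryos. In the same libraries Obox4-ps26, Obox4-ps30, Obox4-ps31, Obox4-ps34, Obox4-ps36 and Obox4-ps6 lay between 0.4093 and 3.892 FPKM. Obox3-ps4 reached 6.655 FPKM in 4-cell Ago2 kd replicate 2 and was listed at 0 elsewhere, and Obox3-ps5 was at 0 in every library. Obox3-ps8, Obox4-ps2, Obox4-ps4, Obox4-ps8, Obox4-ps10, Obox4-ps11, Obox4-ps23, Obox4-ps37, Obox4-ps38 and Obox4-ps39 were at or below 1.36 FPKM. Pseudogenes can share sequence with the members, so their values may carry a like doubt, but shared words were not counted for these rows.

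For each member, the genes with the most similar pattern were sought by Pearson's r of log2(FPKM + 1) over the 10 libraries, in which most of the spread is between stages. Nhp2, which encodes a protein of box H/ACA ribonucleoproteins, was most like Obox6 (r = 0.989), followed by Gm37201 (r = 0.9881). Obox7 was closest to Rassf5 (r = 0.9985) and Erich5 (r = 0.9976), and Obox5 to 6030443J06Rik (r = 0.9978) and Gm13080 (r = 0.9976). Obox1 was closest to Phactr4 (r = 0.9887) and to Mfap2 (r = 0.9792), which like Obox1 was present in 2-cell control replicate 1 (73.38 FPKM) and listed at 0 in replicate 2. Obox3 was closest to Gm4565 (r = 0.9779) and Gm26864 (r = 0.9771). For Obox2, 94 genes reached r over 0.99, led by Topors and Ggta1, both listed at 0 outside the oocyte libraries. Genes over this r numbered 75 for Obox5, 21 for Obox7 and 0 for Obox1, Obox3 and Obox6. The genes named for Obox5 and Obox7 were thus the first of many with a similar pattern.

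Among 23 relatives of the PRD class, 16 had a row and 5 were tested. Crxos, a homeobox gene related to Crx, was listed at 0 in oocytes, had 2.122 and 4.106 FPKM in 2-cell and 58.7 and 51.9 FPKM in 4-cell control embryos (adjusted p = 0.000441 by limma), the direction of Obox6. Duxf3 (Dux), an activator of 2-cell genes, had 6.204 and 4.943 FPKM at the 2-cell stage and at most 0.1338 FPKM in oocytes and 4-cell control embryos, and both steps were called (adjusted p = 0.031 and 0.0176 by limma). Otx1 went from 17.1 and 15.85 FPKM in 2-cell to 0 in both 4-cell control libraries (adjusted p = 0.000605 by limma), as Obox5 did, and Pitx1 had 1.373 and 5.768 FPKM in 4-cell control embryos and was listed at 0 in the other 8 libraries (adjusted p = 0.0114 by limma). Pitx1 thus passed the filter on low genes only through the group where it was high, and the other groups added no spread to its fit. Duxf3 reached 1 FPKM in 2-cell libraries alone, so it too passed the filter only through the stage where it was high. From oocyte to 2-cell embryo 2 of the 5, Duxf3 among them, were called higher and 0 lower (6.54% and 14.2% of all genes). The median log2 difference of the 5 was 0.15 against -0.06 for all genes. At the next step 2, Pitx1 among them, were called higher and 2, Duxf3 among them, lower (21.1% and 17.5% of all genes). The median was -1.11 against 0.24. No relative was called for the knockdown at either stage.

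Of 27 regulators of genome activation, 23 had a row and 17 were tested. From oocyte to 2-cell control embryo 4 were called higher and 2 lower (6.54% and 14.2% of all genes), with a median log2 difference of 0.13 against -0.06 for all genes. From 2-cell to 4-cell control embryo 6 were called higher and 4 lower (21.1% and 17.5% of all genes), with a median of 1.14 against 0.24. Zfp352, a gene known for its burst at the 2-cell stage, was at 0.1125 and 0 FPKM in oocytes, at 197.2 and 290.4 FPKM in 2-cell and at 6.222 and 0.8052 FPKM in 4-cell control embryos, and both steps were called (adjusted p = 0.000822 and 0.00115 by limma). Gabpa, an ETS factor, was listed at 0 in oocytes and had 21 and 46.46 FPKM in 2-cell control embryos (adjusted p = 0.00326 by limma). At the 2-cell stage no regulator was called for the knockdown. At the 4-cell stage 3 of the 17 were called, against 4% of all genes. Tead4 (16.49 and 40.11 FPKM in control and 0 in each knockdown embryo library; adjusted p = 0.00112) and Trim28 (7.223 and 2.035 against 35.8 and 63.58 FPKM; adjusted p = 0.0316) were called lower and Hsf1 (9.799 and 5.748 FPKM against 0 in both; adjusted p = 0.00717) higher by limma. Tead4 was listed at 0 in all 8 libraries outside the 4-cell control group, so it was tested only through the group where it was high, and the other groups added no spread to its fit.

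Of 35 other homeobox genes, 28 had a row and 14 were tested. From oocyte to 2-cell control embryo 4 were called lower and 1 higher (14.2% and 6.54% of all genes), with a median log2 difference of -0.04 against -0.06 for all genes. The 1 called higher, Msx1, reached 1 FPKM in 2-cell libraries alone and passed the filter only through them. From 2-cell to 4-cell control embryo 6 were called lower and 1 higher (17.5% and 21.1% of all genes), with a median of -1.72 against 0.24. Nobox, an oocyte homeobox gene, started at 45.85 and 51.69 FPKM in oocytes, was at 40.56 and 35.9 FPKM in 2-cell control embryos and at 0 in both 4-cell control libraries (adjusted p = 0.000113 by limma), an order of values like that of Obox5. Lhx8, a LIM homeobox gene of the oocyte, had 72.71 and 89.46 FPKM in 2-cell and 0 and 0.2418 FPKM in 4-cell control embryos (adjusted p = 0.000203 by limma). Meis2 went from 359.8 and 360.3 FPKM in oocytes through 87.73 and 88.78 FPKM in 2-cell to 0.9038 and 0.5472 FPKM in 4-cell control embryos, lower at both steps as Obox7 was (adjusted p = 0.00436 and 5.56e-05 by limma). For the knockdown, 0 were called at the 2-cell stage (0.55% of all genes were), and 1, Satb1, was lower at the 4-cell stage, where 4% of all genes were called (3.298 and 2.143 against 15.37 and 12.13 FPKM, adjusted p = 0.0227 by limma).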

How the data were processed

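Samples were assigned by their labels. Per the methods and the submitters' processing notes, the authors trimmed reads with Trim Galore, aligned them to GRCm38 (mm10) with HISAT2 2.1.0 and computed FPKM with StringTie. The deposited FPKM, 1 value per gene name and library, were used without scaling. For most maternal mRNAs the sources used here divide the same sum differently between the MII oocyte libraries, so the spread between them is uncertain. FPKM showed no common step of 1 read, so read numbers and depth are unknown.

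In R 4.3.3 with limma 3.58.1, log2(FPKM + 1) was fitted with 1 mean for each of 5 groups (10 libraries, 5 residual degrees of freedom, empirical Bayes with a trend, two-sided), over the 8726 genes that reached 1 FPKM in 2 or more libraries. The script was tested on simulated data. DESeq2, used by the authors, needs counts and was not run. The members and gene lists were chosen with earlier results of these data known. The text names all Obox rows, for each member the 2 genes of highest r, and of each list at most 4 called genes of lowest p per contrast. Sequences came from GENCODE M21 and RefSeq; coding sequences were aligned with Biopython 1.88. Alternatives were a pseudocount of 0.1, no filter, a minimum of 5 FPKM, 3 scalings, no trend, a replicate block, only the groups compared, unadjusted p, each library left out and, for the shares, Obox6 left out; a fit with Obox1 and Obox2 summed and a fit without MII oocytes were added after the data were seen.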

Additional observations from a re-analysis of the deposited data

How the results depend on the processing

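The number of Obox members called ranged from 2 to 4 over 21 alternatives for 2-cell control against MII oocytes, from 2 to 4 over 22 alternatives for 4-cell against 2-cell control embryos, and from 2 to 3 for 4-cell against 2-cell Ago2 kd embryos. It stayed at 0 for the knockdown at the 4-cell stage and for the interaction; at the 2-cell stage, 1 member (Obox7) had an unadjusted p below 0.05. With the replicate number as a block, 3, 3, 0, 0, 0 and 3 members were called in the 6 contrasts, and the block changed no call of a member. The deviations of same-numbered libraries correlated at -0.0931 to 0.0924 over 10 pairs of groups. Correlations over all genes cannot tell whether same-numbered libraries shared a collection day or batch. Of 574 differences of single members under an alternative, 530 kept direction and side of the threshold, 25 lost the call (all Obox6), 3 gained it and 16 turned in direction; the cause was not tested. Leaving out each library gave Obox1 -5.69 to 1.33 for the knockdown at the 2-cell stage and -1.33 to 5.69 for the interaction, with the turn without 2-cell control replicate 1. For Obox3 the ranges were -0.07 to 2.81 (2-cell against MII), -2.14 to 0.73 (4-cell against 2-cell control), -1.46 to 3.92 (knockdown at the 2-cell stage), -4.41 to 0.97 (interaction) and -5.11 to 0.27 (4-cell against 2-cell Ago2 kd). They were -0.49 to 0.20 for Obox5 (2-cell against MII), and for Obox6 -1.91 to 1.74 (knockdown at the 2-cell stage) and -0.91 to 2.74 (interaction). Scaling turned Obox5 at the first step to 1.04 (common sum), 0.49 (common median) and 1.0 (quantiles). The zygotic share without 1 library was 1.57% to 21% in 2-cell control and 3.54% to 29.4% in 2-cell Ago2 kd embryos, and with Obox6 left out its mean was 0.988% and 7.73%. Without 1 library, 2 settings left Obox1 at 0 on both sides and gave no value. The depth is unknown, so no counting error was given.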
